A study of Mus musculus with 10 samples.

Results

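Cholesterol and fatty acid synthesis was described here by 32 genes in 10 mouse mammary tumours. The genes are 18 enzymes of sterol synthesis, 5 regulators of the SREBP pathway, 3 sterol transport genes and 6 genes of fatty acid synthesis. Of the 32, 31 were found in the count table by their gene name and 1, Msmo1, by its Ensembl identifier, since the table lists it under its older symbol Sc4mol. They are 32 of 37882 genes in the table. All 32 passed the filter on low counts, which left 14063 genes for testing.

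The study set 5 tumours treated with TMA-ARB, an angiotensin receptor blocker designed to be activated in the tumour microenvironment, against 5 Control tumours. Treated mice received valsartan at 40 mg/kg in the TMA-ARB form by retro-orbital intravenous injection daily for 6 days, and Control mice received PBS in equal volume by the same route and schedule. All tumours were grown orthotopically in FVB/N mice from the mammary cancer line MCa-M3C, and treatment began at about 100 mm3. No genetic change was labelled in either group, and mouse age and sex were not given. All tumours came from 1 cell line, and each library was bulk tumour RNA that also holds host cells. Whether the 10 libraries came from 10 animals is not stated in the labels, so the tests use the library-to-library spread, which may be technical.

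Cholesterol is built from acetyl-CoA through mevalonate, farnesyl diphosphate and squalene, and then through lanosterol and a chain of sterol intermediates. The transcription factors SREBP2, encoded by Srebf2, and SREBP1, encoded by Srebf1, switch on these enzymes when membrane sterol is low. Scap carries the SREBP proteins to the Golgi for cleavage, and the INSIG proteins hold Scap back when sterols are plentiful. When oxysterols accumulate, LXR nuclear receptors raise the cholesterol exporters Abca1 and Abcg1, so synthesis and export genes commonly respond to sterol in opposite directions. Tumours use the same pathways to make membrane.

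The promoters of 4 members are shown. Hmgcs1 held a sterol response element, and Insig1 followed Hmgcs1 across tumours. Idi1 varied most, and Abca1 is an export gene. The TMA-ARB and Control tumours overlapped for all 4 genes. Idi1, Insig1 and Abca1 were chosen for display after their values were seen. Each is the run of 250 bases before the RefSeq transcription start on GRCm38.p6, read 5′ to 3′ on the gene's strand. Capitals mark a 9-base sterol response element, TCACCCCAC, and NF-Y boxes, CCAAT, on either strand (ATTGG is the box on the opposite strand). The windows are chr13:119690101-119690350 on the plus strand for Hmgcs1, chr13:8885356-8885605 on the plus strand for Idi1, chr5:28071162-28071411 on the plus strand for Insig1 and chr4:53159896-53160145 on the minus strand for Abca1.
Hmgcs1: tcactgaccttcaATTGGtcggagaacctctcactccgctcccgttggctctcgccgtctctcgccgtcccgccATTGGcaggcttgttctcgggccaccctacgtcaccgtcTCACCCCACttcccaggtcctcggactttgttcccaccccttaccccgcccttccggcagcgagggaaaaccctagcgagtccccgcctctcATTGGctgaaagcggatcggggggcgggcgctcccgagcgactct
Idi1: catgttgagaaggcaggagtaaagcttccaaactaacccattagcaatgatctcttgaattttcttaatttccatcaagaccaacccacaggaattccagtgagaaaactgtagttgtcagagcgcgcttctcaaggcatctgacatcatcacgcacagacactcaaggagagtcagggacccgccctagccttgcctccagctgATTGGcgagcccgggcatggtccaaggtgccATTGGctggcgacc
Insig1: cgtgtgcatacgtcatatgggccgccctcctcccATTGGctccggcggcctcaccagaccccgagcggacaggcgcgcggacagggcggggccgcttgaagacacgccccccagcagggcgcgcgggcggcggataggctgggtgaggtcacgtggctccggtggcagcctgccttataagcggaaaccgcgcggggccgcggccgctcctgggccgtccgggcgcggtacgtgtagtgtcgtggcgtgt
Abca1: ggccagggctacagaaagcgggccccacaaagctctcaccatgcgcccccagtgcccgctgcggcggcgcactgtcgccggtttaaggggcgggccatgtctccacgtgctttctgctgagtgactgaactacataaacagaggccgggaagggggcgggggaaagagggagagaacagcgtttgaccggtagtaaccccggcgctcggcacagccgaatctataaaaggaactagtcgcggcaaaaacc

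The sterol response element in Hmgcs1 began 137 bases before the start, and its NF-Y boxes began 237, 176 and 45 bases before it. Idi1 held NF-Y boxes 45 and 14 bases before the start, Insig1 held 1 at 216 bases, and Abca1 held none in this window. RefSeq promoters of 300 bases (250 before to 50 after a start) were matched for 25 of the 32 members, some with several starts. Abcg1, Fdft1, Fdps, Scd1, Scd2, Sqle and Stard4 had none matched and were not searched. The exact sterol response element was in 1 of these 25 genes, Hmgcs1, and in 0.614% of 27025 genes with a promoter. The NF-Y box was in 14 of 15 sterol enzyme genes and 20 of 25 members, against 41.1% of all genes. The Sp1 box GGGCGG was in 14 of 15 sterol enzyme genes and 21 of 25 members, against 38.2% of all genes. All genes here means every gene with a promoter, expressed in these tumours or not. A gene counted if any of its starts matched. By promoter, the NF-Y box was in 21 of 33 from members and 37.4% of all. The Sp1 box was in 25 of 33 from members and 35.7% of all. These are matches of letters within a short window and no measure of binding.

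Library totals ran from 12742953 to 16884621 counts, and no pair of libraries was identical. Values are CPM, the deposited counts scaled to a common library size with TMM factors. The share of counts from the 13 mitochondrially encoded protein genes averaged 10.1% ± 8.75 in TMA-ARB tumours and 4.00% ± 2.11 in Control tumours (SD, n = 5 each; exact permutation p = 0.143), and reached 24.0% in TMA-ARB replicate 9. Mammary epithelial markers summed to 106 to 238 CPM in TMA-ARB tumours and 83.3 to 159 CPM in Control tumours. All 7 epithelial markers were detected. Krt18 carried most of the sum, Krt8 held 2766 counts over all libraries, Krt19 1274, Cdh1 973 and Epcam 413, and Cldn7 and Elf3 held 37 and 24. Krt8 ran from 8.24 to 56.8 CPM in TMA-ARB tumours and from 8.04 to 16.8 CPM in Control tumours. Its log2 fold change of 1.23 ± 0.42 had the smallest p of the epithelial markers tested (edgeR unadjusted p = 0.0122, adjusted p = 0.997). The others were mixed: Krt18 was at 0.38 ± 0.28, Krt19 at 2.03 ± 1.42, Epcam at 0.77 ± 0.80 and Cdh1 at -0.32 ± 0.46. Each had an unadjusted edgeR p of 0.187 or more. TMA-ARB replicate 6 held 852 of the Krt19 counts and 199 of the Epcam counts. The part of the epithelial markers in the member values was not tested. Of 4 milk genes, Wap held 0 counts in every library, where the limit of 3 counts equals 0.168 to 0.308 CPM. Csn2 held 7 counts over all libraries and Lalba 39. Csn1s1 held 38, of which 26 were in TMA-ARB replicate 6 and 10 in TMA-ARB replicate 7. Fibroblast markers summed to 3865 to 4394 CPM in TMA-ARB tumours and 3811 to 4900 CPM in Control tumours, and proliferation genes to 599 to 1267 CPM in TMA-ARB tumours and 512 to 1000 CPM in Control tumours. The lowest proliferation sums were in TMA-ARB replicate 8 and Control replicate 2, the tumours with the lowest sterol enzyme means, and their part in those means was not tested. None of the 12 library measures compared between groups passed (adjusted exact permutation p = 0.571 or more).

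No member passed the test between TMA-ARB and Control tumours. EdgeR's quasi-likelihood test called 0 of 32 members at an adjusted p under 0.05, and 0% of the 14063 genes tested. All 32 members had an adjusted p of 0.997. DESeq2 called 0 members and 0.00837% of 23897 genes, and limma-voom with sample weights called 0 members and 0 genes. At an unadjusted p under 0.05 edgeR gave 1 member higher (Insig1) and 1 lower (Abca1), where 1.59% of all genes tested were higher and 1.66% were lower at that level. No member had groups that did not overlap, higher or lower, against 0.164% of genes higher and 0.363% lower. In counts simulated for this comparison, over 13707 genes tested, the same test recovered 24% of genes changed 2-fold and 0% of those changed 1.5-fold. The changed genes were drawn at random from all genes tested and simulated independently of each other. These rates are therefore not those of the members, whose levels and spread differ from gene to gene. Every fitted change among the members was smaller than 2-fold.

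**Figure D1:**
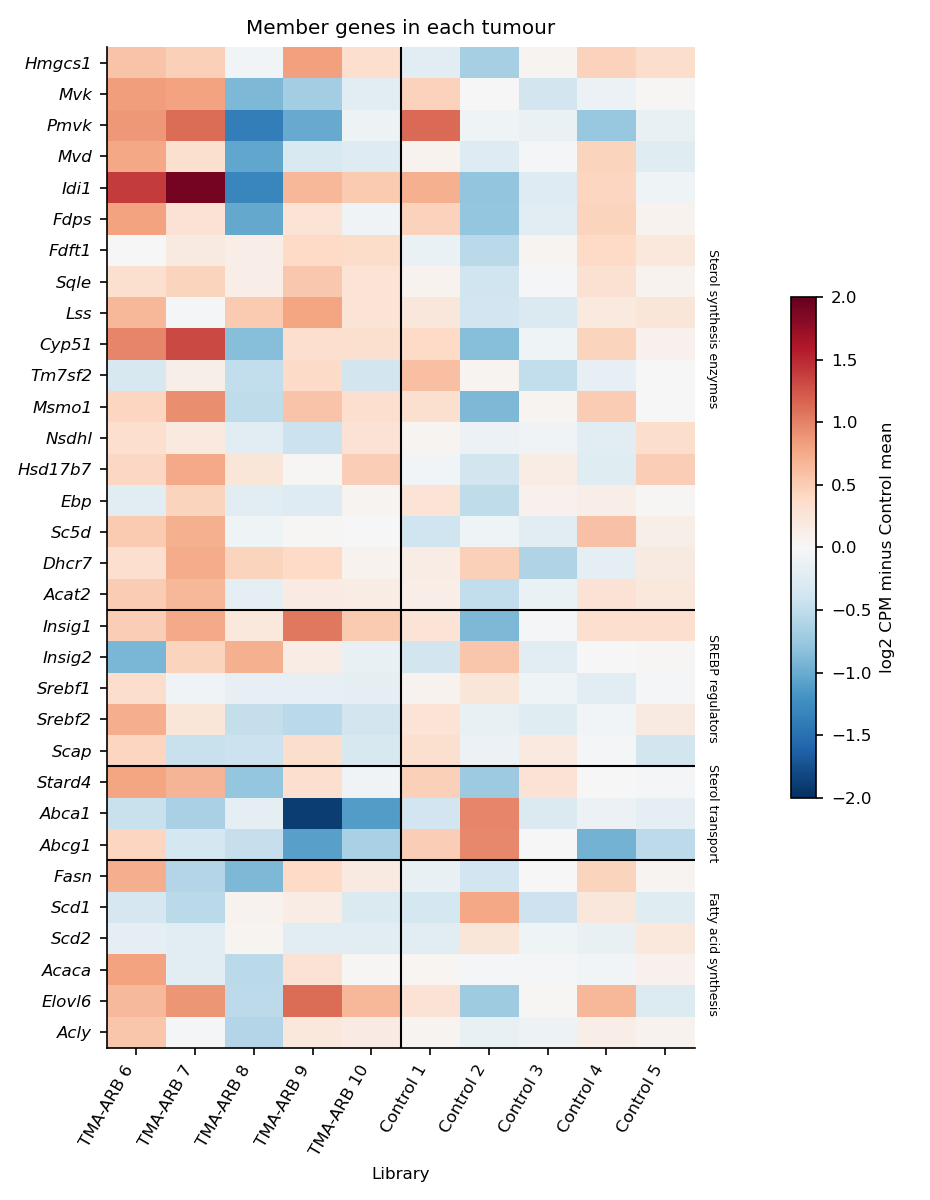
Log2 CPM of each member (rows, by gene group) in each tumour (columns, TMA-ARB left of Control), as the difference from the Control mean of that gene. Most sterol enzymes are high in TMA-ARB replicates 6 and 7 and low in TMA-ARB replicate 8 and Control replicate 2. Both groups hold high and low tumours.

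Of the 18 sterol enzymes, 16 had a positive log2 fold change (TMA-ARB over Control) and 2 a negative one, with a median of 0.25. Over all genes tested 52.8% were positive and the median was 0.02. The list was chosen with earlier results of these data known, and enzymes such as Hmgcs1 and Sqle followed each other across tumours. The count therefore has no test. With 1 tumour left out, Mvk, Pmvk, Mvd, Fdps and Nsdhl could turn negative, and Ebp and Tm7sf2 positive. The other enzymes stayed positive. No enzyme passed, and none reached an unadjusted p under 0.05. The enzymes were also fitted on either side of a mitochondrial share of 5%. Among tumours with a share under 5% (TMA-ARB replicates 6 and 7 against Control replicates 1, 2 and 5) the median of the enzymes was 0.58. Among those above 5% (TMA-ARB replicates 8, 9 and 10 against Control replicates 3 and 4) it was 0.003. Whether the sides differ was not tested. The side under 5% holds the TMA-ARB tumours with the highest enzyme means, replicates 6 and 7. Above 5% the groups do not share a range of mitochondrial share. It was 10.1%, 24.0% and 11.2% in TMA-ARB replicates 8 to 10, and 6.11% and 6.28% in Control replicates 3 and 4. With the mitochondrial share as a covariate the median was 0.33, and with the mitochondrial genes left out it was 0.26. With sample weights it was 0.15. In bulk tumours, fewer cells of a type and less RNA per cell cannot be told apart.

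The pathway starts with Acat2, which joins acetyl-CoA units, and Hmgcs1, the HMG-CoA synthase. Hmgcs1 (chromosome 13, 119690379 to 119708260) measured 126, 118, 82.1, 150.5 and 108 CPM in TMA-ARB replicates 6 to 10, against 73.6, 54.0, 88.8, 117 and 109 CPM in Control replicates 1 to 5. The groups overlapped: TMA-ARB replicate 8 lay below the Control mean, and Control replicates 4 and 5 reached the middle of the treated range. The log2 fold change was 0.40 ± 0.23 (SE). Acat2 measured 36.6, 40.6, 22.6, 28.9 and 28.6 CPM in TMA-ARB replicates 6 to 10, against 28.2, 18.2, 23.3, 31.4 and 29.6 CPM in Control replicates 1 to 5. Only TMA-ARB replicates 6 and 7 lay above every Control tumour for Acat2 (log2 fold change 0.27 ± 0.21), a gene with a near-identical neighbour, Acat3, to which reads could be assigned.

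The mevalonate steps varied widely between tumours, and none differed between groups beyond that spread. Mvk and Pmvk, the kinases that phosphorylate mevalonate in turn, had log2 fold changes of 0.13 ± 0.34 and 0.07 ± 0.49. Mvd, the decarboxylase that makes isopentenyl diphosphate, had 0.01 ± 0.31. Idi1, the isomerase of that product (chromosome 13, 8885501 to 8892451), measured 97.4, 139.7, 14.8, 58.2 and 52.7 CPM in TMA-ARB replicates 6 to 10, against 60.3, 21.2, 30.6, 49.8 and 34.6 CPM in Control replicates 1 to 5. TMA-ARB tumours held both the highest level (replicate 7) and the lowest (replicate 8), a 9.41-fold range that was the widest of the 32 members. The mean was 72.6 ± 47.6 CPM in TMA-ARB tumours and 39.3 ± 15.6 CPM in Control tumours (SD, n = 5 each). Its log2 fold change of 0.89 ± 0.49 was the largest positive value among the members and did not pass. Among tumours with a mitochondrial share under 5% it was 1.62 (adjusted p = 0.246), and among those above it was 0.05 (adjusted p = 0.993), both by edgeR. It was 0.52 without TMA-ARB replicate 7 and 0.39 with sample weights, which lowered the weight of TMA-ARB replicates 6 and 7. Fdps, the farnesyl diphosphate synthase, had 0.10 ± 0.31. Idi1 has a close relative, Idi2, so its counts carry extra uncertainty.

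The branch into sterols begins with Fdft1, the squalene synthase, which had a log2 fold change of 0.19 ± 0.18, and of 0.077 without Control replicate 2. Sqle, the squalene epoxidase and a control point of the pathway (chromosome 15, 59315077 to 59331192), measured 127, 137, 111, 146 and 122 CPM in TMA-ARB replicates 6 to 10, against 106, 76.8, 98.9, 124 and 106 CPM in Control replicates 1 to 5. All 5 TMA-ARB tumours lay above the Control mean, but Control replicate 4 lay inside the treated range. The mean was 129 ± 13.6 CPM in TMA-ARB tumours and 102 ± 17.2 CPM in Control tumours (SD, n = 5 each). Its log2 fold change was 0.33 ± 0.17. Lss, the lanosterol synthase, measured 26.3, 16.3, 23.9, 28.7 and 20.1 CPM in TMA-ARB replicates 6 to 10, against 19.4, 12.7, 13.5, 19.1 and 19.7 CPM in Control replicates 1 to 5. Here 4 of 5 TMA-ARB tumours exceeded every Control tumour and replicate 7 lay among them (log2 fold change 0.45 ± 0.21).

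The late steps that turn lanosterol into cholesterol were mixed. Cyp51, the lanosterol demethylase, measured 134, 170.2, 37.7, 86.3 and 85.4 CPM in TMA-ARB replicates 6 to 10, against 90.1, 37.8, 64.2, 92.5 and 72.6 CPM in Control replicates 1 to 5. As for Idi1, TMA-ARB replicates 6 and 7 were the highest of all tumours, and replicate 8 was as low as Control replicate 2. Hsd17b7, a reductase of the demethylation complex, measured 22.8, 29.2, 20.2, 17.3 and 24.2 CPM in TMA-ARB replicates 6 to 10, against 16.5, 13.3, 19.1, 14.5 and 24.3 CPM in Control replicates 1 to 5. Dhcr7, the reductase that yields cholesterol, measured 25.0, 32.9, 26.7, 25.9 and 20.6 CPM in TMA-ARB replicates 6 to 10, against 21.9, 27.3, 12.9, 17.1 and 22.2 CPM in Control replicates 1 to 5. All 5 TMA-ARB tumours lay above the Control mean of Dhcr7, and the groups overlapped for all 3 genes. Their log2 fold changes were 0.53 ± 0.35 for Cyp51, 0.38 ± 0.22 for Hsd17b7 and 0.37 ± 0.22 for Dhcr7. Cyp51 was at 0.28 without TMA-ARB replicate 7. Msmo1, the methylsterol oxygenase, had 0.35 ± 0.28, and Sc5d, a sterol desaturase, had 0.24 ± 0.24. Nsdhl, a dehydrogenase of the demethylation complex, had 0.05 ± 0.20. The negative enzymes were Ebp, a sterol isomerase, at -0.04 ± 0.19 and Tm7sf2, a sterol reductase, at -0.15 ± 0.33.

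**Figure D2:**
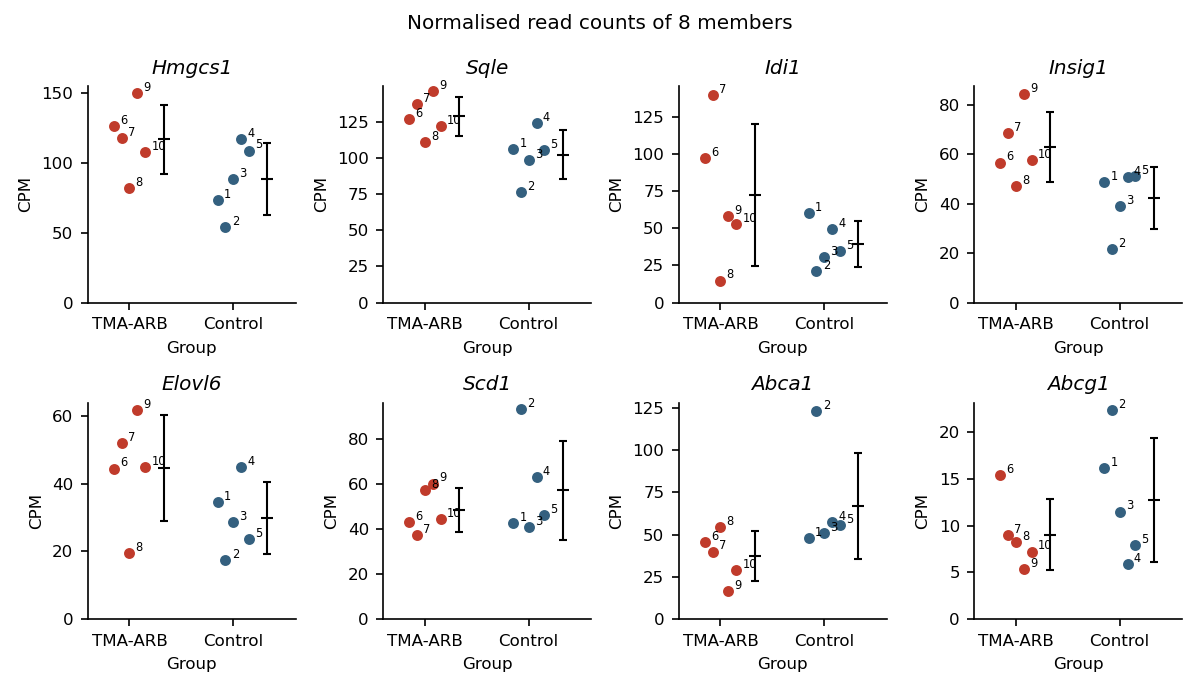
CPM of 8 members in each tumour (points, with the replicate number), TMA-ARB left of Control; the bar beside each group is its mean with SD (n = 5). Sqle and Insig1 are above the Control mean in all 5 TMA-ARB tumours and Abca1 is below it in all 5, while every gene's groups overlap.

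Among the 5 SREBP regulators, Insig1 had the largest log2 fold change and the other 4 lay near 0. Insig1, itself a target of SREBP and the brake on its release (chromosome 5, 28071363 to 28078662), measured 56.6, 68.4, 46.9, 84.4 and 57.8 CPM in TMA-ARB replicates 6 to 10, against 48.6, 21.6, 39.0, 50.9 and 51.1 CPM in Control replicates 1 to 5. Every TMA-ARB tumour exceeded the Control mean, and 4 of 5 exceeded every Control tumour. The mean was 62.8 ± 14.3 CPM in TMA-ARB tumours and 42.2 ± 12.6 CPM in Control tumours (SD, n = 5 each). The log2 fold change was 0.57 ± 0.24 (edgeR unadjusted p = 0.0322, adjusted p = 0.997). Without Control replicate 2, the lowest tumour, it was 0.40, and it was 0.63 and 0.48 on the sides below and above a 5% mitochondrial share.

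Insig2, the paralogue of Insig1, had another order of tumours. Insig2 measured 22.1, 57.0, 68.6, 46.5 and 37.8 CPM in TMA-ARB replicates 6 to 10, against 32.4, 61.2, 36.0, 42.3 and 42.3 CPM in Control replicates 1 to 5. TMA-ARB replicate 8 and Control replicate 2, the tumours with the lowest Insig1 in their groups, had the highest Insig2 of all 10. Srebf2 measured 142, 102, 62.3, 59.6 and 66.5 CPM in TMA-ARB replicates 6 to 10, against 104, 77.5, 73.2, 82.9 and 97.2 CPM in Control replicates 1 to 5. Srebf1 measured 81.4, 61.0, 57.3, 57.2 and 56.2 CPM in TMA-ARB replicates 6 to 10, against 67.3, 76.1, 60.6, 55.5 and 62.8 CPM in Control replicates 1 to 5. TMA-ARB replicate 6 was the highest tumour for both factors, and the TMA-ARB tumours above a 5% mitochondrial share (8, 9 and 10) had the lowest Srebf2 levels of all 10. The log2 fold changes were 0.12 ± 0.27 for Insig2, -0.01 ± 0.24 for Srebf2, -0.04 ± 0.16 for Srebf1 and -0.05 ± 0.22 for Scap, the escort protein. The median of the 5 regulators was -0.01.

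Of the 3 sterol transport genes, the exporters Abca1 and Abcg1 had negative log2 fold changes and the carrier Stard4 a positive one, and none passed. Abca1, which loads cholesterol onto apolipoproteins (chromosome 4, 53030787 to 53159895), measured 45.7, 39.9, 54.5, 16.6 and 28.9 CPM in TMA-ARB replicates 6 to 10, against 47.7, 123, 51.0, 57.5 and 55.4 CPM in Control replicates 1 to 5. All 5 TMA-ARB tumours were below the Control mean, but TMA-ARB replicate 8 exceeded 2 Control tumours. The mean was 37.1 ± 14.8 CPM in TMA-ARB tumours and 66.9 ± 31.5 CPM in Control tumours (SD, n = 5 each). The log2 fold change of -0.85 ± 0.33 had the smallest p among the members (edgeR unadjusted p = 0.0229, adjusted p = 0.997). Without Control replicate 2 the value was -0.51, and with the mitochondrial share as a covariate it was -0.54 (edgeR adjusted p = 0.883).

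Abcg1, which exports cholesterol to mature lipoproteins, measured 15.4, 8.95, 8.27, 5.33 and 7.23 CPM in TMA-ARB replicates 6 to 10, against 16.2, 22.3, 11.5, 5.88 and 7.89 CPM in Control replicates 1 to 5. Apart from Control replicate 2 the groups covered nearly the same range, and the log2 fold change of -0.49 ± 0.37 became -0.20 without it. Stard4, a carrier of cholesterol between membranes and a SREBP2 target, had 0.24 ± 0.30. Macrophages are rich in both exporters. All 8 macrophage markers were detected and none was at 0, and their summed level ran from 392 to 1540 CPM in TMA-ARB tumours and from 914 to 1531 CPM in Control tumours. With the macrophage markers as a covariate the log2 fold change of Abca1 was -0.62 (edgeR adjusted p = 0.815). TMA-ARB replicates 8, 9 and 10 had the lowest macrophage levels, and the correlation of Abca1 with them is given with the other relations across tumours.

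**Figure D3:**
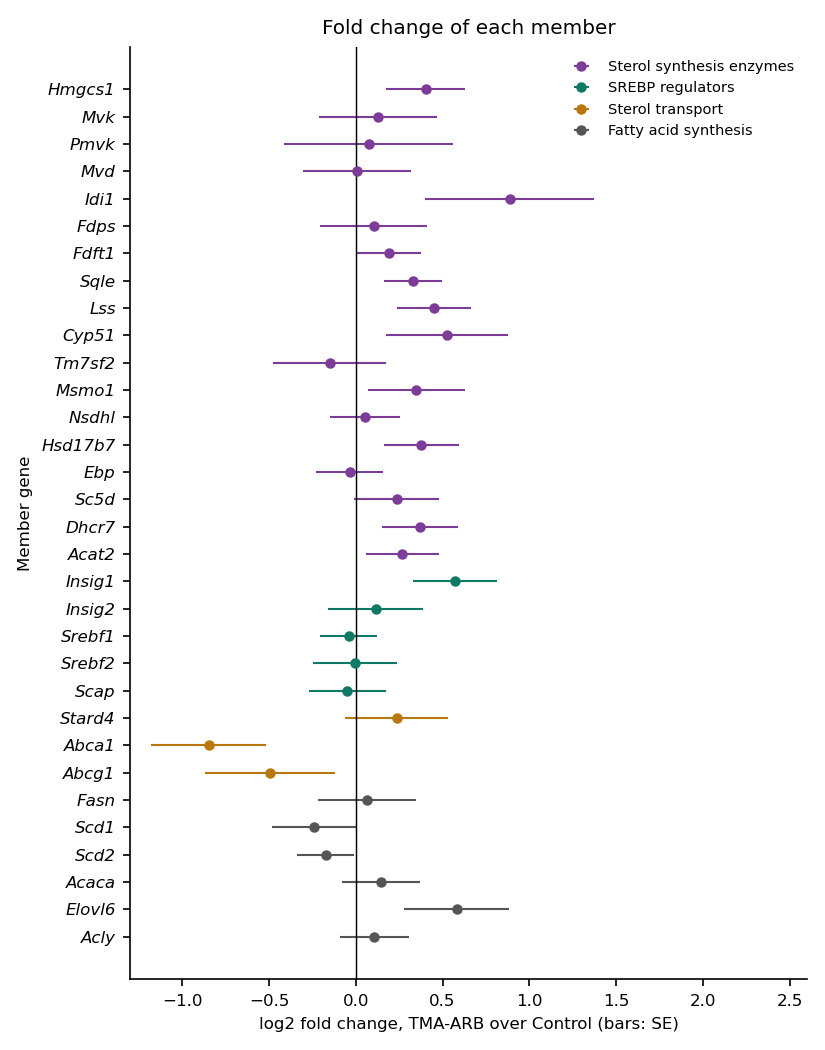
Log2 fold change (TMA-ARB over Control) of each member with its standard error, coloured by gene group. Idi1 at 0.89 and Abca1 at -0.85 are the extremes, with the widest bars on the genes that varied most between tumours.

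Of the 6 genes of fatty acid synthesis 4 had a positive log2 fold change and 2 a negative one, and none passed. Acly, which releases cytosolic acetyl-CoA from citrate, measured 249, 168, 113, 196 and 191 CPM in TMA-ARB replicates 6 to 10, against 176, 153, 159, 186 and 179 CPM in Control replicates 1 to 5. Fasn, the fatty acid synthase, measured 156, 62.8, 50.4, 125 and 107 CPM in TMA-ARB replicates 6 to 10, against 85.1, 72.4, 95.2, 129 and 98.2 CPM in Control replicates 1 to 5. For both genes the TMA-ARB tumours held the highest and the lowest level, in replicates 6 and 8. The log2 fold changes were 0.11 ± 0.20 for Acly and 0.06 ± 0.28 for Fasn. Acaca, the acetyl-CoA carboxylase, had the same extremes at 55.5 and 21.9 CPM, while its 5 Control tumours lay between 30.6 and 33.7 CPM (log2 fold change 0.15 ± 0.23).

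The elongase had a positive log2 fold change and both desaturases a negative one. Elovl6, which lengthens palmitate (chromosome 3, 129532355 to 129638495), measured 44.5, 52.2, 19.6, 61.8 and 45.0 CPM in TMA-ARB replicates 6 to 10, against 34.7, 17.3, 28.8, 44.8 and 23.5 CPM in Control replicates 1 to 5. TMA-ARB replicate 8 lay near the lowest Control tumour and Control replicate 4 reached the other treated tumours, and the log2 fold change was 0.58 ± 0.30. It was 0.95 below a 5% mitochondrial share and 0.18 above it, and neither passed. Scd1, a desaturase that makes oleate, measured 42.8, 37.3, 57.1, 60.1 and 44.5 CPM in TMA-ARB replicates 6 to 10, against 42.5, 93.1, 40.7, 63.1 and 46.0 CPM in Control replicates 1 to 5. Scd2, its paralogue, measured 237, 232, 284, 233 and 233 CPM in TMA-ARB replicates 6 to 10, against 234, 324, 256, 247 and 314 CPM in Control replicates 1 to 5. Control replicate 2 was the highest tumour for both desaturases. The log2 fold changes were -0.24 ± 0.24 for Scd1 and -0.17 ± 0.16 for Scd2, and the median of the 6 genes was 0.09. That median was 0.33 on the side below 5% and -0.01 on the side above.

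Adipocytes express fatty acid synthesis genes strongly, and mammary tumours grow in a fat pad. All 9 adipocyte markers were detected. Adipoq, which defines adipocytes, held 9 counts over all 10 libraries, Lep 4, Cidea 4 and Cidec 13. Cfd held 70, Plin1 77, Retn 77 and Plin4 117, so these markers were low but not absent. TMA-ARB replicate 6, the highest tumour for Fasn, Acly and Acaca, held 5 counts of Adipoq, 4 of Lep, 13 of Cidec and 51 of Cfd. It held 0 of Cidea, 5 of Plin1, 9 of Retn and 19 of Plin4. The part of adipocytes in the member values of that tumour was not tested. Fabp4, which endothelial cells also express, made up nearly all of the marker sum, which ran from 37.8 to 58.4 CPM in TMA-ARB tumours and from 42.0 to 61.5 CPM in Control tumours. The correlation of Scd1 with that sum did not pass (Pearson r = -0.43, permutation p = 0.215; Spearman rho = -0.35, permutation p = 0.331).

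Per kilobase of merged exon, Scd2 was the most abundant member at 47.5 CPM per kb averaged over the 10 tumours, followed by Ebp at 43.7 and Acly at 33.5. Hmgcs1 at 22.4 and Sqle at 20.8 came next. Tm7sf2 at 1.08, Abcg1 at 1.49, Lss at 1.85 and Acaca at 1.96 CPM per kb were the lowest. The exon length counts all annotated isoforms, which lowers the value of genes with long alternative exons.

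Each group held tumours at both ends of the range, and the enzymes did not all share the same extreme tumours. Control replicate 2 had the lowest level of 8 of the 18 sterol enzymes (Hmgcs1, Fdft1, Sqle, Lss, Msmo1, Hsd17b7, Ebp and Acat2), and of Insig1 and Elovl6. The same tumour had the highest Abca1, Abcg1, Scd1 and Scd2 of all 10. Its red cell markers summed to 1368 CPM, where the next highest tumour, TMA-ARB replicate 8, had 444 CPM. Its endothelial markers summed to 285 CPM, where the next highest, TMA-ARB replicate 7, had 220 CPM. The part of these cells in its member values was not tested. TMA-ARB replicate 9 had the highest Hmgcs1, Fdft1, Sqle, Lss, Insig1 and Elovl6 and the lowest Abca1 and Abcg1. It also had the lowest Nsdhl and Srebf2, and its Scd1 was the highest of the TMA-ARB tumours, so it was not the opposite of Control replicate 2 throughout. TMA-ARB replicate 8 was lowest for 7 other enzymes (Mvk, Pmvk, Mvd, Idi1, Fdps, Cyp51 and Tm7sf2), and for Stard4, Fasn, Acaca and Acly. TMA-ARB replicates 6 and 7 were highest for 11 of the 18 enzymes. These sets were read from the values and have no test.

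**Figure D4:**
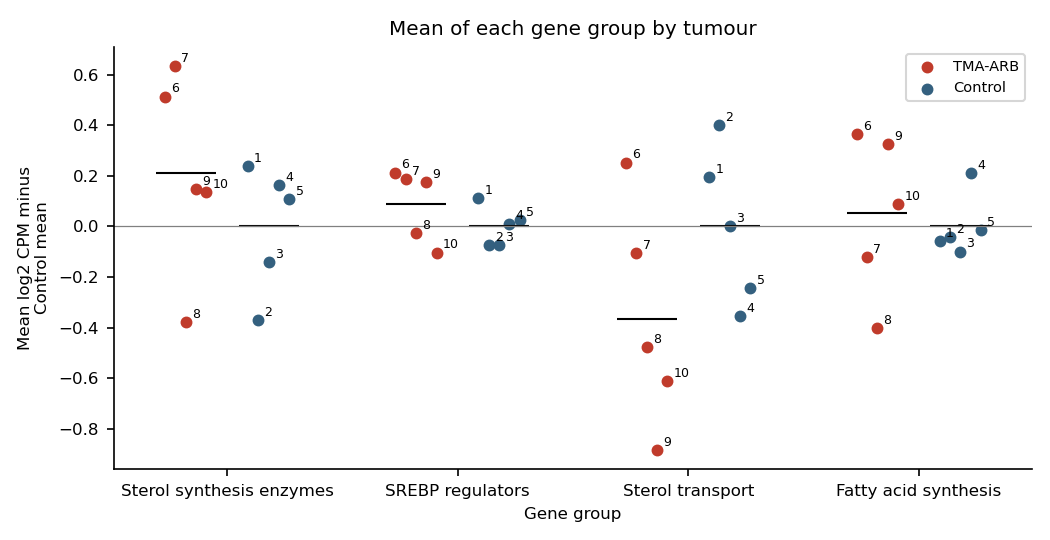
Mean over each gene group of log2 CPM minus the Control mean of each gene, per tumour (points, with the replicate number), TMA-ARB left of Control; lines are group means. For sterol enzymes, TMA-ARB tumours run from -0.38 (replicate 8) to 0.63 (replicate 7), and Control tumours from -0.37 (replicate 2) to 0.24 (replicate 1).

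Averaged over the 18 sterol enzymes, TMA-ARB replicates 6 to 10 lay 0.51, 0.63, -0.38, 0.15 and 0.14 from the Control mean in log2 CPM, and Control replicates 1 to 5 lay 0.24, -0.37, -0.14, 0.16 and 0.11 from it. The treated range contained the Control range. For sterol transport the TMA-ARB tumours lay at 0.25, -0.11, -0.48, -0.88 and -0.61 and the Control tumours at 0.19, 0.40, 0.003, -0.36 and -0.24. The order of TMA-ARB tumours in this transport mean was thus not their order in synthesis, where replicate 8 was lowest. The mean pools the exporters with Stard4. On its own Stard4 lay at 0.78, 0.67, -0.78, 0.33 and -0.08 in TMA-ARB replicates 6 to 10, and was also lowest in replicate 8.

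Of 6 relations examined across the 10 tumours, 3 passed after adjustment. Hmgcs1 followed Sqle (Pearson r = 0.91, permutation p = 0.00039, adjusted p = 0.00108; Spearman rho = 0.85, permutation p = 0.00289, adjusted p = 0.00722). Hmgcs1 followed Insig1 (Pearson r = 0.90, permutation p = 0.00054, adjusted p = 0.00108; Spearman rho = 0.84, permutation p = 0.00361, adjusted p = 0.00722). Fasn followed Acly (Pearson r = 0.89, permutation p = 0.00028, adjusted p = 0.00108; Spearman rho = 0.90, permutation p = 0.00071, adjusted p = 0.00426). With the group means removed the Pearson r values were 0.89, 0.86 and 0.90 and all 3 passed. Without the 2 tumours farthest from the median of Sqle, Insig1 or Acly they were 0.72, 0.64 and 0.74, and none passed (permutation adjusted p = 0.162, 0.180 and 0.162). That setting leaves 8 tumours and a narrower range, so it cannot tell whether the calls rest on the tumours removed. The relations were chosen with earlier results known, and the share of other gene pairs that correlate as strongly was not computed. The mitochondrial sides hold 5 tumours each, too few for a correlation within each. Both genes of a pair share the library and its scaling.

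**Figure D5:**
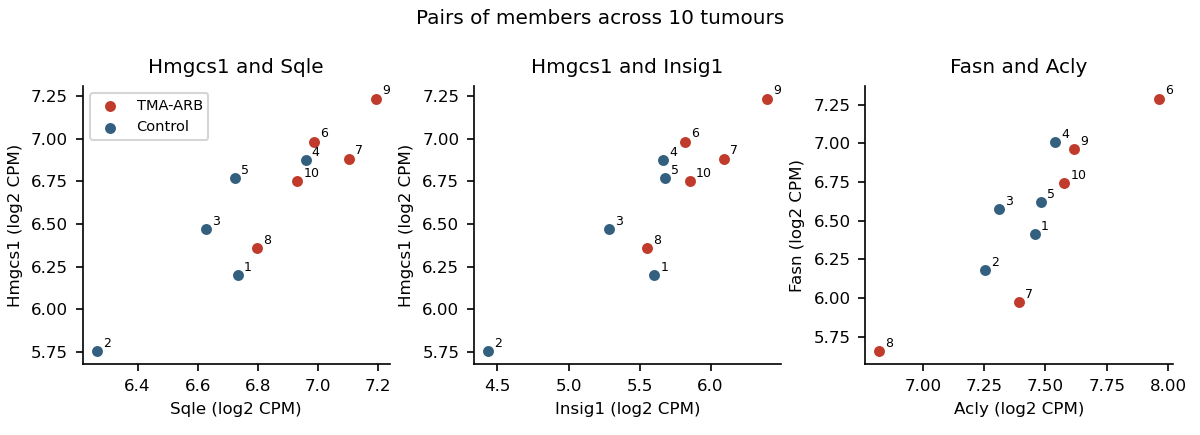
Log2 CPM of Hmgcs1 against Sqle, Hmgcs1 against Insig1 and Fasn against Acly in the 10 tumours (points, with the replicate number, coloured by group). Control replicate 2 and TMA-ARB replicate 9 are the ends of both Hmgcs1 plots, and TMA-ARB replicates 8 and 6 are the ends of the Fasn plot.

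The remaining relations did not pass. Abca1 with the summed macrophage markers had a Pearson r of 0.63 (permutation p = 0.0537, adjusted p = 0.0805) and a Spearman rho of 0.19 (permutation p = 0.608, adjusted p = 0.608), and without the 2 farthest tumours r was 0.40. Hmgcs1 with the mitochondrial share had a Pearson r of 0.49 (permutation p = 0.155, adjusted p = 0.186) and a Spearman rho of 0.41 (permutation p = 0.247, adjusted p = 0.370), and without the 2 farthest tumours r was 0.19. For Scd1 with the adipocyte sum the adjusted p was 0.215 for Pearson's r and 0.397 for Spearman's rho (permutation tests), and r was -0.35 without the 2 farthest tumours.

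Other genes of the pathway, from 5 further lists, held 0 genes called by edgeR. Of 16 genes of LXR signalling and sterol handling 11 were negative and 5 positive, with a median log2 fold change of -0.11. Apoe, the apolipoprotein that accepts exported cholesterol, measured 905, 1046, 1025, 470.0 and 807 CPM in TMA-ARB replicates 6 to 10, against 1314, 1783, 1016, 1451 and 1455 CPM in Control replicates 1 to 5. It was below the lowest Control tumour in 3 of 5 TMA-ARB tumours, with a log2 fold change of -0.72 ± 0.24. Mylip, a LXR target that degrades lipoprotein receptors, was at -0.84 ± 0.38, and Lipa, the lysosomal lipase that frees cholesterol from esters, at -0.61 ± 0.28. These 3 of the 16 had an unadjusted p under 0.05 (edgeR adjusted p = 0.997 each), where 1.66% of all genes tested were lower at that level. The list was chosen with earlier results of these data known, so the count has no test. Control replicate 2 was the highest tumour for all 3. Without that tumour Mylip was at -0.51 and Lipa at -0.35. Apoe lay between -0.82 and -0.56 with any 1 tumour left out. Apoe and Lipa are abundant in macrophages, whose marker levels are given above, and their part was not tested for these genes.

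The other lists had medians from -0.08 to 0.13, against 0.02 over all genes tested and -0.11 for the LXR list. Of 9 measured genes of SREBP control 5 were positive and 4 negative (median 0.02), with Mbtps1, a protease that cleaves SREBP, at -0.25, Pgrmc1 at 0.24 and Erlin1 at 0.16. Spring1 was not matched in the table. Of 10 isoprenoid genes beyond the sterol branch 4 were positive and 6 negative (median -0.05), with Ggps1, the geranylgeranyl diphosphate synthase, at 0.33, Dhdds, of dolichol synthesis, at -0.31 and Icmt at -0.29. Of 14 further fatty acid genes tested 5 were positive and 9 negative (median -0.08), and Acacb and Thrsp were too low to test. Acsl3 and Acsl4, which activate long-chain fatty acids, were at 0.44 and -0.25, and G6pdx, a source of NADPH, was at -0.36. Acsl4 was the only one of these genes whose groups did not overlap, where 0.363% of all genes tested were lower without overlap and 0.164% higher. It measured 209 to 254 CPM in TMA-ARB tumours and 254 to 331 CPM in Control tumours, with a gap smaller than 1 CPM, and it did not pass. Of 9 glyceride genes tested 5 were positive and 4 negative (median 0.13), with Plin2, a lipid droplet coat protein, at -0.33, Pnpla2 at -0.26 and Lipe at 0.28. Without Control replicate 2 Plin2 was at -0.029. Mogat2 was too low to test.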

How the data were processed

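RNA was measured in 5 TMA-ARB and 5 Control tumours, grouped by sample title; poly-A RNA was made into strand-marking libraries, per the labels' protocols. The authors deposited estimated counts for 37882 Ensembl genes, made with Salmon and mm10 per the submitters' processing notes; its version, strand setting, annotation and any rounding are not given in the sources used here. The deposited values were whole (0 were not), and every column matched a sample (0 unmatched). Reads shared by near-identical gene copies or by overlapping antisense genes may have been split between them.

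The test was edgeR 4.0.16's quasi-likelihood F test in R 4.3.3, over all genes tested, with TMM scaling, filterByExpr, robust dispersion and Benjamini-Hochberg adjustment at 0.05. CPM was computed from the deposited counts; log2 CPM used a prior count of 2. A standard error is the absolute log2 fold change divided by the square root of F. DESeq2 1.42.0 and limma 3.58.1 were alternatives. Correlations used 100000 permutations, adjusted over 6; library measures used an exact test over 252 arrangements (smallest p 0.00794), adjusted over 12. All tests are two-sided. On simulated counts (13707 genes tested, 50 changed per fold), edgeR recovered 68% of genes changed 3-fold and 76% of those changed 4-fold and made 3 false calls.

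The members, lists, tests and settings were chosen with earlier results of these data known. Values in every library are given for 13 genes fixed by name, the 6 other members of smallest p and, of the further lists, Apoe. Log2 fold changes are given for up to 3 genes of smallest p per further list. Coordinates and exon lengths are from GENCODE release M21 (GRCm38, the assembly of mm10), and promoters from RefSeq on GRCm38.p6. Intervals and floors cover counting error only. Protein sequences were not used here.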

Additional observations from a re-analysis of the deposited data

Results flagged for a closer look

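Each member was examined for a tumour far from the other 4 of its group on the log2 CPM scale, by the gap to its neighbour as a share of the group's range (Dixon's critical value 0.71 for 5 samples). Of 64 groups examined 4 were past it, where chance alone passes about 1 in 20. Scd2 was highest in TMA-ARB replicate 8 at 284 CPM, against 232 to 237 CPM in the other TMA-ARB tumours (gap share 0.895). Abca1 was highest in Control replicate 2 at 123 CPM, against 47.7 to 57.5 CPM in the other Control tumours (0.802). Srebf1 was highest in TMA-ARB replicate 6 at 81.4 CPM, against 56.2 to 61.0 CPM in the other TMA-ARB tumours (0.780). Elovl6 was lowest in TMA-ARB replicate 8 at 19.6 CPM, against 44.5 to 61.8 CPM in the other TMA-ARB tumours (0.714).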

How the results depend on the processing

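No setting tried called a member, including DESeq2, which called 2 genes in all, and the tumours above a 5% mitochondrial share, where 4 genes in all were called. The direction differed from the main value in 78 of 703 member values over 22 settings. The direction never differed for Hmgcs1, Idi1, Fdft1, Sqle, Lss, Hsd17b7, Dhcr7, Insig1, Abca1, Abcg1, Scd2 and Elovl6. The cause was not tested.

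Log2 fold changes of opposite sign were as follows. Srebf2 was at 0.0085 with DESeq2, 0.0086 with RLE scaling, 0.0087 with no low-count filter and 0.0054 with the mitochondrial genes left out. With sample weights (limma-voom) Mvk was at -0.21, Pmvk -0.22, Mvd -0.22, Fdps -0.12, Stard4 -0.030 and Fasn -0.018. With the adipocyte covariate Mvk was at -0.016, Pmvk -0.059, Mvd -0.13, Fdps -0.0034, Ebp 0.0015, Fasn -0.036 and Acaca -0.019. With the mitochondrial share (log2) in the model Ebp was at 0.0029, Srebf1 0.10 and Srebf2 0.22, and with the macrophage covariate, added after seeing the data, Ebp 0.042, Srebf1 0.070 and Srebf2 0.23. Below a 5% share Ebp was at 0.19, Insig2 -0.20, Srebf1 0.054, Srebf2 0.40 and Scap 0.10. Above it Mvk was at -0.35, Pmvk -0.33, Mvd -0.75, Fdps -0.34, Cyp51 -0.18, Tm7sf2 0.21, Msmo1 -0.12, Sc5d -0.26, Acat2 -0.041, Stard4 -0.27, Fasn -0.26, Scd1 0.047 and Acly -0.057. With 1 tumour left out the ranges that crossed 0 were Mvk -0.11 to 0.32, Pmvk -0.27 to 0.48, Mvd -0.26 to 0.20, Fdps -0.11 to 0.30, Nsdhl -0.018 to 0.16, Ebp -0.17 to 0.032, Fasn -0.15 to 0.24, Acaca -0.077 to 0.28, Acly -0.024 to 0.25, Scap -0.19 to 0.046, Insig2 -0.067 to 0.30, Srebf2 -0.25 to 0.11, Srebf1 -0.15 to 0.024, Tm7sf2 -0.29 to 0.034 and Scd1 -0.34 to 0.0064. Among values that kept their sign, leaving out Control replicate 2 gave 0.27 for Hmgcs1, 0.16 for Acat2, 0.18 for Msmo1 and -0.11 for Scd2. Without TMA-ARB replicate 7 Sc5d was at 0.11, without TMA-ARB replicate 6 Stard4 was at 0.082, and without Control replicate 3 Dhcr7 was at 0.24. Of the other pathway genes, Mbtps1 was at -0.12, Pgrmc1 0.11, Icmt -0.15, G6pdx -0.19, Pnpla2 -0.11 and Lipe 0.18 without TMA-ARB replicate 9, Erlin1 0.012 and Ggps1 0.17 without TMA-ARB replicate 7, Dhdds -0.19 without Control replicate 1 and Acsl3 0.20 without TMA-ARB replicate 8.

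Medians moved by more than the spread between tumours for the regulators (-0.14 with the adipocyte covariate; -0.15 to 0.11 with 1 tumour left out), for transport (-0.032 with the mitochondrial covariate) and for fatty acid synthesis (0.33 below a 5% share). The 3 correlations that passed were 0.72, 0.64 and 0.74 without the 2 farthest tumours and did not pass. The difference in mitochondrial share, 6.10 points, ran from 2.64 to 8.10 points with 1 tumour left out, and its exact permutation p was 0.0397 without TMA-ARB replicate 6. No paired analysis was possible because the groups share no replicate number.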
